A study of Mus musculus with 6 samples.

Results

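The 8 genes described here, Scnn1a, Scnn1b, Scnn1g, Atp1b1, Cftr, Aqp1, Aqp3 and Aqp4, encode channels, a pump subunit and water pores that move salt and water across the lining of the airspace. They were taken by symbol, with every probe, from an array of 18138 gene symbols, and 10 of its 25697 probes carry their names. Aqp1 has 3 of these probes and each other gene has 1. Lung RNA of male FVB pups (FVB/N in the study's methods), aged 6 days after birth, was hybridised to Illumina arrays, with 3 hSRY-OFF and 3 hSRY-ON samples and 1 array for each. In both groups the mice are named for a human SRY transgene, present as a single copy at 1 chosen site of the genome and driven, once active, by the broadly active CAG promoter. In hSRY-OFF mice the transgene had not been recombined, and the promoter drove a red fluorescent protein in place of SRY. In hSRY-ON mice the Cre recombinase carried over in the egg of a Ddx4-Cre mother had removed that segment in the early embryo, so SRY and a green fluorescent protein could be made in every tissue. The hSRY-ON mice chosen for the arrays had not themselves inherited the Cre transgene. The labels and the study's methods both name the comparison group of the arrays hSRY-OFF, while the study elsewhere used the word control, also its name for littermates without the SRY transgene.

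Before birth the lung is filled with fluid that its own epithelium secretes, with chloride leaving through channels such as CFTR. At birth the epithelium turns to absorption. Sodium enters the cell through the epithelial sodium channel ENaC on the airspace side, is pumped out on the other side by the Na,K-ATPase, and water follows, in part through aquaporins. Glucocorticoids and beta-adrenergic signals are the best known stimuli of this switch, and mice without the alpha subunit of ENaC fail to clear their lungs.

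The values below are normalized log2 intensities, and a change is always the hSRY-ON mean minus the hSRY-OFF mean on that scale, so that 1 unit is a doubling. A probe counted as detected on an array when its detection p, the share of negative control probes brighter than it, was under 0.05. Of all probes, 13841 (53.9%) were detected on at least 3 of the 6 arrays and were tested. A probe was called when its Benjamini-Hochberg adjusted p over all tested probes was under 0.05 (limma, two-sided). The arrays each detected 13191 to 14134 probes. The labelled tissue was borne out by its defining transcripts, since all 10 alveolar type II cell markers examined were detected, Sftpc among them. Of 8 alveolar type I cell markers on the array, Hopx and Rtkn2 were detected on no array and the other 6 were tested. The 2 groups could not be checked by the transgene, for which the array carries no probe. Since whole lungs were used, more cells of a type and more RNA per cell cannot be told apart in any result given here.

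Most of the fluid clearance genes were higher in hSRY-ON lungs. All 10 probes passed the detection filter, though Aqp3 did so through its 3 hSRY-ON arrays alone. Of the 10, 6 probes for 6 genes were called higher, where 13.6% of all tested probes were. Aqp3 is among the 6, and it could be tested only because it was detected in hSRY-ON. None of the 10 was called lower, where 13.3% of all tested probes were. In either direction 26.9% of the tested probes were called. The same 6 probes had every hSRY-ON array above every hSRY-OFF array, a pattern seen in 22.4% of the tested probes, while groups apart in either direction were seen in 46.6%. The uncalled genes were Cftr, with 1 probe, and Aqp1, with 3. Taking the brightest probe of each gene, the median change of the 8 genes was 1.51, and 1.47 with Aqp3 at the bound given below, beside -0.03 for all tested probes. The genes were chosen with earlier results of these arrays known, so the count describes them and is no independent test of the pathway.

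**Figure D1:**
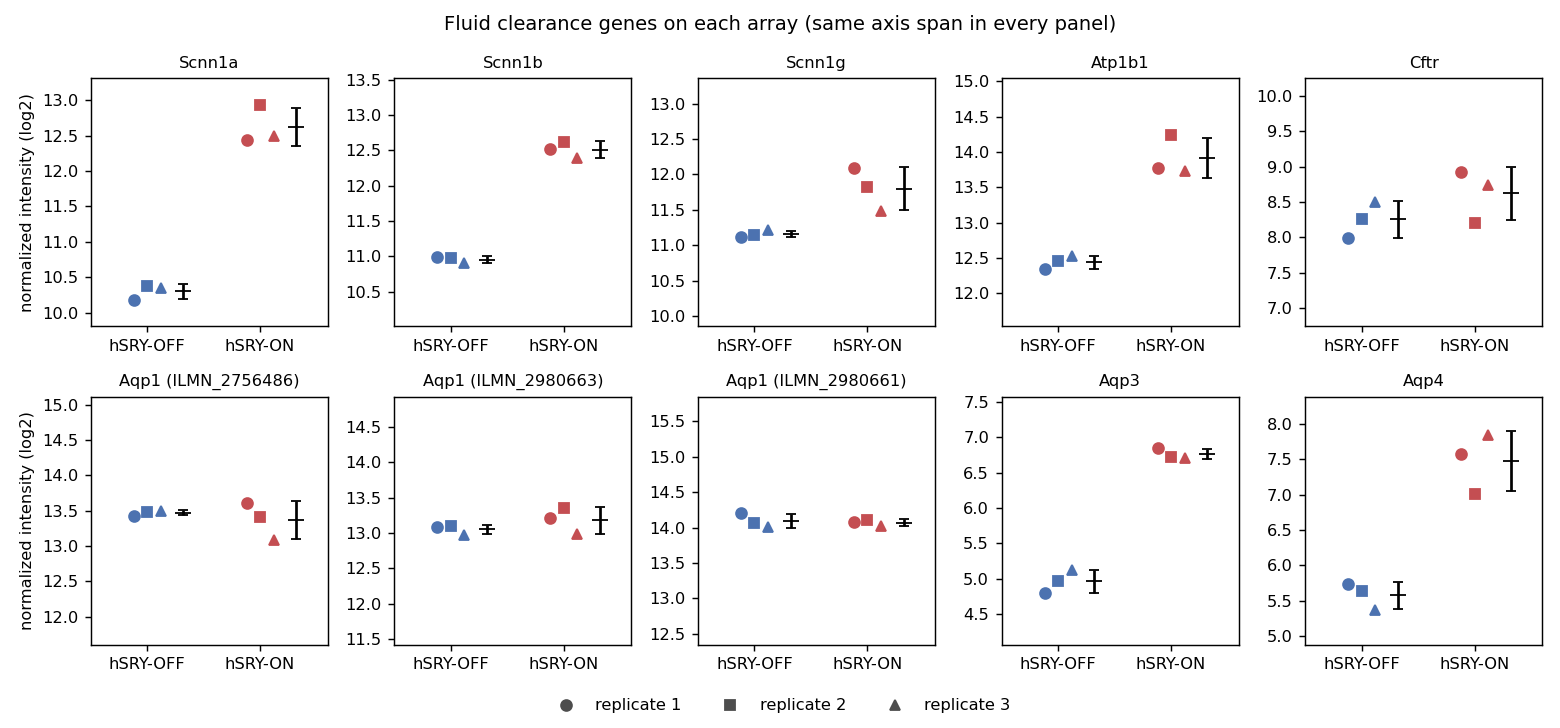
Normalized log2 intensity (y axis) of each probe of the 8 genes on each of the 6 arrays, by group (x axis), with the symbol giving the replicate number and the bar beside the points the mean ± SD of 3 arrays. Every panel spans the same number of log2 units. For Scnn1a, Scnn1b, Scnn1g, Atp1b1, Aqp3 and Aqp4 the groups are apart, while for Cftr and the 3 probes of Aqp1 they overlap.

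All 3 subunit genes of the sodium channel were called higher, by unequal amounts. ENaC is built from an alpha, a beta and a gamma subunit, encoded by Scnn1a, Scnn1b and Scnn1g, and the alpha subunit is needed for the channel to conduct. Scnn1a (ILMN_2729607) was at 10.18, 10.38 and 10.35 on the hSRY-OFF arrays and at 12.44, 12.94 and 12.50 on the hSRY-ON arrays, in the order of replicates 1 to 3. The groups were far apart, with hSRY-ON replicate 2 the highest. The means were 10.30 ± 0.11 (SD, n = 3) and 12.62 ± 0.27 (SD, n = 3). Scnn1a thus rose by 2.32, standard error 0.16 (limma, adjusted p = 0.000598), which is 5.0-fold with a 95% interval of 3.83 to 6.53. This was the largest change of the 8 genes and ranked 65 among the rises of all 13841 tested probes.

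Scnn1b (ILMN_2618383) was at 10.99, 10.98 and 10.90 in hSRY-OFF and at 12.52, 12.62 and 12.38 in hSRY-ON lungs. Replicates were close in both groups, with SDs of 0.05 and 0.12. Scnn1b rose by 1.55, standard error 0.12 (limma, adjusted p = 0.000691), or 2.94-fold with a 95% interval of 2.43 to 3.56. Scnn1g (ILMN_2759914) was at 11.12, 11.14 and 11.21 in hSRY-OFF and at 12.09, 11.82 and 11.49 in hSRY-ON lungs. Here the hSRY-ON arrays were spread out, with an SD of 0.30 against 0.05, and their lowest, replicate 3, lay close above the hSRY-OFF arrays. Scnn1g rose by 0.64, standard error 0.17 (limma, adjusted p = 0.0309), or 1.56-fold with a 95% interval of 1.19 to 2.05. The Scnn1g call depended on single arrays. Its adjusted p became 0.103, 0.0996 and 0.0757 when hSRY-OFF replicate 1, 2 or 3 was left out, and 0.0806 when hSRY-ON replicate 2 was left out (limma), whereas its change stayed between 0.49 and 0.80 over all fits that left out an array. The calls of Scnn1a and Scnn1b held whichever array was left out.

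To compare the subunits, the difference between 2 subunits was taken within each array and then compared between the groups. Scnn1a gained 0.77 on Scnn1b, Scnn1a gained 1.68 on Scnn1g, and Scnn1b gained 0.91 on Scnn1g, always on the log2 scale. In each of the 3 comparisons all hSRY-ON arrays lay above all hSRY-OFF arrays (two-sided exact permutation test, p = 0.1 for each and 0.1 after adjustment over the 3). This is the smallest p that 3 against 3 arrays allow, so the test cannot pass 0.05. The hSRY-ON spread was widest where Scnn1g took part, at an SD of 0.42 for Scnn1a against Scnn1g and 0.25 for Scnn1b against Scnn1g, beside 0.20 for Scnn1a against Scnn1b.

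Scnn1b and Scnn1g are neighbours on mouse chromosome 7, with 0 protein-coding genes between them in the RefSeq annotation, yet rose by different amounts. The bases before their annotated starts are shown with those of Atp1b1 and Aqp3, since these are the called genes with a usable RefSeq promoter entry, so that a reader can set the 4 regions side by side. Sequences are from RefSeq (GRCm38.p6), printed 5′ to 3′ on the strand of the gene. They cover chr7:121864788-121865037 (plus strand) for Scnn1b, chr7:121734229-121734419 (plus strand) for Scnn1g, chr1:164458356-164458605 (minus strand) for Atp1b1 and chr4:41098184-41098433 (minus strand) for Aqp3. Each holds 250 bases, or 191 for Scnn1g, where bases of the window inside the annotated gene were left out. Capitals mark a match to a SOX core, the letters to which proteins of the SRY family bind.
Scnn1b: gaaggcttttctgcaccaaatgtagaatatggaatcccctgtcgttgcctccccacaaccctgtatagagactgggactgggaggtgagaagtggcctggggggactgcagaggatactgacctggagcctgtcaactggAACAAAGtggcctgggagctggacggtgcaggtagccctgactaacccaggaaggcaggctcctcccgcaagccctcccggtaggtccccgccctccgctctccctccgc
Scnn1g: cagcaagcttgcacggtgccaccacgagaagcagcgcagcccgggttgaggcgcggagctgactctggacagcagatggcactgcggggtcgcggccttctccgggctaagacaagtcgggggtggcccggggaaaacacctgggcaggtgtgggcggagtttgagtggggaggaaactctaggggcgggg
Atp1b1: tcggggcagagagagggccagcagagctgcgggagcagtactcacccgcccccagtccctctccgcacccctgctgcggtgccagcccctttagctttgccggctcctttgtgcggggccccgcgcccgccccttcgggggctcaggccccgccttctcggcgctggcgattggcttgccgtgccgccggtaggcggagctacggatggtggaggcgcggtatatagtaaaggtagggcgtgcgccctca
Aqp3: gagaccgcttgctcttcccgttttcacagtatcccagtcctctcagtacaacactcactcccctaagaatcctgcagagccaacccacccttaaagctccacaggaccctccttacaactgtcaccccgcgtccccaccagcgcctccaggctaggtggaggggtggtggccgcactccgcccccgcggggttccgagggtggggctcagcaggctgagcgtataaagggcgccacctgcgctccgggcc
Both strands were searched for AACAAT or AACAAAG as SOX cores and for AGAACA as a glucocorticoid receptor half-site. Scnn1b held 1 SOX core, AACAAAG, starting 110 bases before the gene's start, and the other 3 regions held none. None of the 4 held the half-site. Of 32851 RefSeq promoter windows of 250 bases, 13.8% held a SOX core and 16.1% the half-site. The motifs were chosen with the changes of these genes known. The windows were rich in G and C, at 60.8% for Scnn1b, 67% for Scnn1g, 70.4% for Atp1b1 and 64% for Aqp3. A match is a description of the letters only, and the absence of one says nothing of binding elsewhere.

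Atp1b1 encodes the beta subunit of the Na,K-ATPase, which carries the catalytic subunit to the membrane. Its probe (ILMN_2767615) was at 12.34, 12.45 and 12.52 in hSRY-OFF and at 13.78, 14.24 and 13.72 in hSRY-ON lungs. The groups were well apart, and hSRY-ON replicate 2 was again the highest, as for Scnn1a and Scnn1b. Atp1b1 rose by 1.47, standard error 0.16 (limma, adjusted p = 0.00201), or 2.78-fold with a 95% interval of 2.12 to 3.63. It was called whichever array was left out, and the change lay between 1.30 and 1.56 in those fits.

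The pump has other subunits, and a list of 13 genes for these and for the FXYD proteins, small partners that tune the pump, was examined beside it. Of these, 12 were on the array and 9 had a tested probe, with 4 genes called higher and 1 lower. The beta subunits Atp1b2 and Atp1b3 were not called, with changes of -0.30 and -0.06. Among the FXYD genes, Fxyd3 rose by 0.77 and Fxyd6 by 0.92, and the 3 probes of Fxyd5 rose by 0.58 to 0.75. Neither tested Fxyd4 probe was called, with changes of -0.82 and -0.75. The median change of the list was 0.35.

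Cftr, the chloride channel mutated in cystic fibrosis, did not pass the test. Its probe (ILMN_1259577) was at 7.99, 8.26 and 8.50 in hSRY-OFF and at 8.93, 8.20 and 8.74 in hSRY-ON lungs. The groups overlapped, with hSRY-ON replicate 2 below 2 of the hSRY-OFF arrays. Its difference of 0.37, standard error 0.22 (limma, adjusted p = 0.251), had a 95% interval from -0.15 to 0.89. A moderate rise or a small fall was thus within the error. No alternative called it, and its adjusted p ranged from 0.0816 to 0.542 over them (limma).

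Among 18 other genes of chloride, bicarbonate and proton transport, 17 were on the array and 15 had a tested probe, with 4 genes called higher and 1 lower and a median change of 0.02. Slc9a3r1, an adaptor that tethers CFTR at the membrane, rose from 10.33 ± 0.08 (SD, n = 3) to 11.29 ± 0.15 (SD, n = 3), a change of 0.96 (limma, adjusted p = 0.00330). Slc12a2, the cotransporter that loads epithelial cells with chloride for secretion, rose by 0.48 and 0.59 on 2 probes. The anion transporter Slc26a9 was called on 1 of its 4 tested probes, with a change of 0.83, and its other probes gave 0.07, 0.41 and 0.28. The fall was that of Car2, a carbonic anhydrase, whose mean of 12.42 ± 0.03 (SD, n = 3) in hSRY-OFF compared with 10.79 ± 0.33 (SD, n = 3) in hSRY-ON lungs. Car2 changed by -1.63 (limma, adjusted p = 0.00189). The chloride channels Clcn2, Clcn3 and Ano1 were not called, with changes of -0.03, 0.33 and -0.28.

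Aquaporins are water pores, and the 3 members among the 8 genes sit in different cells of the lung. Aqp1 is known from the endothelium of small vessels and from red blood cells, Aqp3 from basal cells of the large airways and Aqp4 from the basolateral face of airway cells. Aqp3 and Aqp4 were called higher, whereas no probe of Aqp1 was called.

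Aqp1 was bright on all 6 arrays. Probe ILMN_2756486 was at 13.43, 13.48 and 13.50 in hSRY-OFF and at 13.61, 13.41 and 13.08 in hSRY-ON lungs, a change of -0.10 with a 95% interval from -0.47 to 0.26 (limma, adjusted p = 0.659). Probe ILMN_2980663 was at 13.08, 13.09 and 12.98 and at 13.21, 13.36 and 12.98, a change of 0.13 with an interval from -0.19 to 0.45 (limma, adjusted p = 0.503). Probe ILMN_2980661 was at 14.20, 14.06 and 14.01 and at 14.08, 14.11 and 14.02, a change of -0.02 with an interval from -0.29 to 0.25 (limma, adjusted p = 0.903). All 3 probes overlapped between the groups. As folds, their intervals ran from 0.724 to 1.20, from 0.879 to 1.36 and from 0.818 to 1.19, in the same order. The signs of 2 of them turned with median scaling, and none passed the test under any alternative. Beside this, 4 of 11 tested endothelial marker genes were called lower, namely Cdh5, Tie1, Cldn5 and Esam, and Eng was called higher. Among all tested probes, 13.3% were called lower and 13.6% higher. The summed intensity of the 12 endothelial genes was 91510 to 96868 on the hSRY-OFF arrays and 74962 to 78111 on the hSRY-ON arrays, and Kdr was the 1 gene of the list detected on no array. Of 6 tested erythroid marker genes, Rhag was called higher and none lower, and the summed intensity of the 7 erythroid genes on the array was 58284 to 66502 and 58733 to 66307, a sum led by Hba-a1, whose probe had the same normalized value on all 6 arrays. The part of these cells in the Aqp1 values was not tested.

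Aqp3, which also carries glycerol, was a dim probe (ILMN_2991272). It was detected on no hSRY-OFF array, at 4.80, 4.97 and 5.12, and on all 3 hSRY-ON arrays, at 6.85, 6.73 and 6.71. As it was not above background in hSRY-OFF, its rise is a bound, with the hSRY-ON mean of 6.76 ± 0.07 (SD, n = 3) set against the lowest detected signal of each hSRY-OFF array. With the background correction used here, this bound was 2.78-fold, a change of 1.47, and it was given no error. It holds for that correction only. The change was 0.58 without background correction and 1.13 with an offset of 50, both below the bound. Aqp3 was called (limma, adjusted p = 0.000609) in the fit that used the undetected hSRY-OFF values, and this p does not test the bound. Of 5 basal cell marker genes, Krt14 and Krt15 were called higher, with changes of 2.07 and 2.45, Ngfr was not called, and the defining markers Krt5 and Trp63 were detected on no array. Their summed intensity was 224.0 to 276.8 on the hSRY-OFF arrays and 616.1 to 1105 on the hSRY-ON arrays. The part of basal cells in the Aqp3 value was not tested.

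Aqp4 (ILMN_2757232) was at 5.73, 5.63 and 5.37 in hSRY-OFF and at 7.58, 7.01 and 7.84 in hSRY-ON lungs. It was detected on 2 hSRY-OFF arrays and on all hSRY-ON arrays, and the groups were apart. Aqp4 rose by 1.90, standard error 0.22 (limma, adjusted p = 0.00241), or 3.73-fold with a 95% interval of 2.59 to 5.39. Within hSRY-ON, replicate 2 had the lowest Aqp4, while it had the highest Scnn1a, Scnn1b and Atp1b1. The sizes of the Aqp3 and Aqp4 changes depend on how the background is treated, as both lie near it. Without background correction they were 0.58 and 0.78, and with an offset of 50 they were 1.13 and 1.38, and both stayed called.

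Of the 9 other aquaporins on the array, 3 had a tested probe. Aqp11, a pore of the endoplasmic reticulum, went from 7.12 ± 0.14 (SD, n = 3) to 7.91 ± 0.15 (SD, n = 3), a change of 0.79 (limma, adjusted p = 0.00787). Aqp5, the water pore of alveolar type I cells, was at 12.61 ± 0.14 (SD, n = 3) and 12.78 ± 0.19 (SD, n = 3) and was not called (limma, adjusted p = 0.407). Aqp9 was not called either, with a change of 0.31. Mip, Aqp2, Aqp6, Aqp7 and Aqp12 were detected on no array, and Aqp8 on 1.

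**Figure D2:**
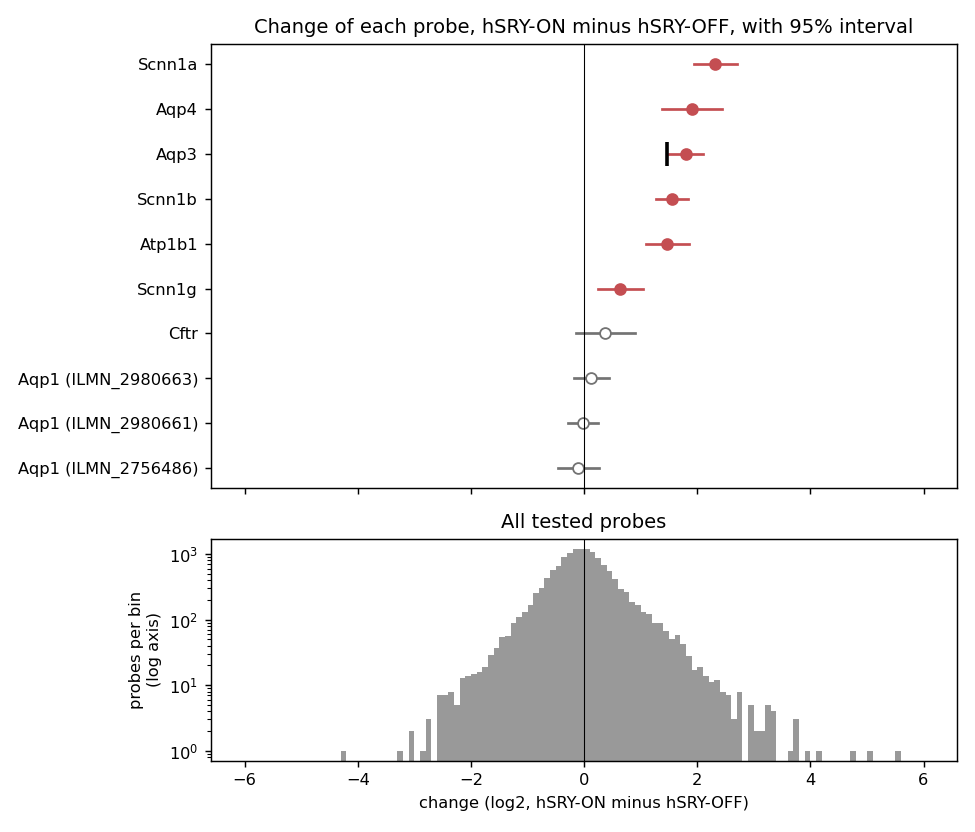
Upper panel, change of each probe of the 8 genes (x axis, log2, hSRY-ON minus hSRY-OFF) with its 95% interval, filled where called, and a short vertical bar at the bound for Aqp3. Lower panel, the changes of all 13841 tested probes in bins of 0.1, on a log axis of probe counts. The 6 called probes lie between 0.64 and 2.32, and the 3 Aqp1 probes and Cftr have intervals that include 0.

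The other genes around ENaC were followed in lists, which were chosen with earlier results of these data known. Their counts stand beside the 13.6% of tested probes called higher and the 13.3% called lower. The counts are of genes, and any called probe was enough for its gene to be counted. A gene with several probes thus had more chances, so these shares of probes are no matched baseline. ENaC is activated by proteases that cut its alpha and gamma subunits. Of 8 such proteases and protease inhibitors, 7 had a tested probe, and 5 genes were called higher and 1 lower, with a median change of 0.40. The membrane protease Tmprss4 rose by 1.29 and 1.15 on 2 probes (limma, adjusted p = 0.00351 and 0.00518). Prss8, or prostasin, rose by 0.59 and 0.73 on its 2 probes. St14, or matriptase, rose by 0.84 on 1 probe and was not called on the other, at 0.40. Tmprss2 rose by 0.44, a call lost under 7 of 16 alternatives. The inhibitor Spint1 rose by 0.36 with an adjusted p barely under the threshold (limma), a call lost under 11 of 16 alternatives. Serpine2, an inhibitor of prostasin, changed by -0.55 and lost its call under 12 of 16. Furin was not called on its 2 tested probes, with changes of 0.18 and 0.14.

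The channel's time at the membrane is set by the ubiquitin ligase Nedd4l, which removes it, and by the kinase Sgk1, which holds that ligase back. Both were higher in hSRY-ON. Nedd4l (ILMN_2878501) went from 9.62 ± 0.14 (SD, n = 3) to 10.33 ± 0.17 (SD, n = 3), a change of 0.71 (limma, adjusted p = 0.0123). Sgk1 (ILMN_1213954) went from 13.69 ± 0.18 (SD, n = 3) to 14.35 ± 0.12 (SD, n = 3), a change of 0.66 (limma, adjusted p = 0.0152). The deubiquitinase Usp2 rose by 0.97 and the kinase Wnk4 by 1.05, the latter on a probe detected on 1 hSRY-OFF array. Ywhab, a 14-3-3 protein, changed by -0.73 on 1 of its 2 probes, a call lost under 9 of 16 alternatives. Of the 11 genes of this list, 10 were tested and 4 were called higher and 1 lower, and the median change was 0.19. Nedd4 itself, Stk39 and Oxsr1 were not called, with changes of -0.22, 0.20 and -0.01.

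All 5 tested genes of the list for steroid signalling to ENaC were called, 4 higher and 1 lower, and the median change was 1.46. Hsd11b1 and Hsd11b2 encode enzymes of opposite action, the first making active glucocorticoid within the cell and the other inactivating it. Hsd11b1 rose on all 4 probes, by 1.32 to 1.51. Its probe ILMN_3115917 was at 12.40, 12.59 and 12.79 in hSRY-OFF and at 14.05, 14.22 and 13.87 in hSRY-ON lungs (limma, adjusted p = 0.00175). Hsd11b2 (ILMN_2731265) was at 7.56, 7.70 and 7.18 and at 4.55, 5.06 and 5.87, a change of -2.32 (limma, adjusted p = 0.00419), and was detected on 1 hSRY-ON array. The groups were apart for both genes, in opposite directions. Without background correction the change of Hsd11b2 was -0.91. The glucocorticoid-induced genes Fkbp5, Tsc22d3 and Per1 rose on every probe, by 2.95 for Fkbp5, by 2.04 and 1.36 for Tsc22d3 and by 1.87 and 1.70 for Per1, with adjusted p between 0.00201 and 0.0117 (limma). Fkbp5 (ILMN_2718266) was at 7.26, 7.38 and 7.00 in hSRY-OFF and at 10.07, 10.90 and 9.52 in hSRY-ON lungs, with the groups apart. The probe of the glucocorticoid receptor gene Nr3c1 was detected on no array, and its level was not measured.

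The beta-adrenergic and cAMP list ran the other way. Of its 11 genes, 10 were tested, none was called higher and 4 were called lower, with a median change of -0.25. The beta-adrenergic receptor gene Adrb1 changed by -0.55 (limma, adjusted p = 0.0440), a call lost under 10 of 16 alternatives. The adenylate cyclase gene Adcy4, which endothelial cells express, fell on all 3 probes, by 0.59 to 0.73. The arrestin gene Arrb1 was called lower on 3 of 5 probes, with changes from -0.91 to -0.72, and Prkaca, a catalytic subunit of protein kinase A, on 1 of 2, with a change of -0.44. The Prkaca call was lost under 10 of 16 alternatives, and those of the Adcy4 probes under 3, 9 and 4 of 16. One Arrb1 probe kept its call under all 16, and its other called probes lost theirs under 5 and 7.

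**Figure D3:**
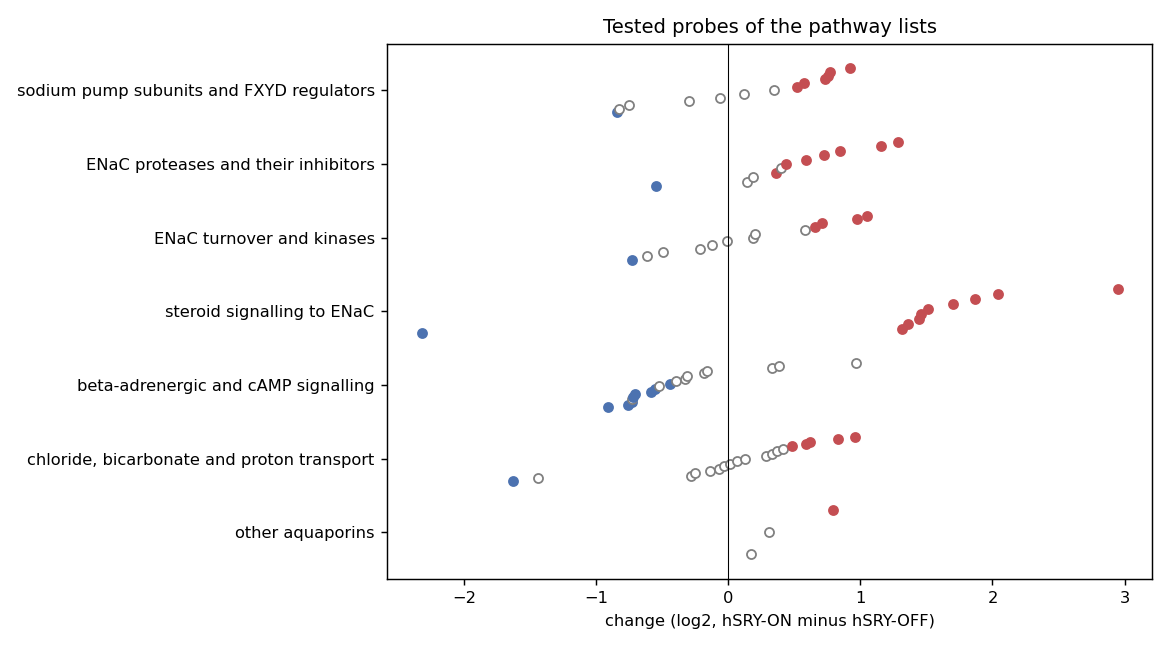
Change of every tested probe in the 7 pathway lists (x axis, log2, hSRY-ON minus hSRY-OFF), 1 list per row with its probes in order of change, red where called higher, blue where called lower and open where not called. The steroid list holds called probes alone, with Hsd11b2 at -2.32 and Fkbp5 at 2.95, and in the beta-adrenergic and cAMP list all called probes are below 0.

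Over the 7 lists, 45 of 87 tested probes were called, for 31 genes, where 26.9% of all tested probes were called. As the lists were chosen with earlier results known, this count is no independent test of the pathway. Of the 45 probes, 19 kept their call in all 6 fits that left out an array. The 14 genes with such a probe were Aqp11, Arrb1, Car2, Fkbp5, Fxyd5, Hsd11b1, Hsd11b2, Per1, Slc26a9, Slc9a3r1, St14, Tmprss4, Tsc22d3 and Wnk4. The share of all called probes on the array that kept their call in these fits was not counted. The calls of Nedd4l, Sgk1, Prss8 and Slc12a2 were all lost without hSRY-OFF replicate 1, and their adjusted p reached at most 0.0571, 0.0707, 0.0952 and 0.0992 over the alternatives (limma).

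ENaC and the pump are known from several epithelial cells, so the markers of these cells are given beside them. The markers are counted by gene, while of all tested probes 13.6% were called higher and 13.3% lower. Of 10 alveolar type II genes tested, 4 were called higher (Sftpb, Sftpd, Abca3 and Napsa) and none lower, with a median change of 0.34. Abca3 was called on its brighter probe, at 0.61, and not on its dimmer probe, at -0.07. The uncalled Sftpa1, Slc34a2 and Cxcl15 changed by 0.41, 0.28 and 0.14. The uncalled Sftpc changed by -0.25, Etv5 by -0.30, and Lamp3 by -0.31 and -0.18 on 2 probes. For Sftpc and the first of these Lamp3 probes, every hSRY-ON array lay below every hSRY-OFF array. The summed intensity of the 10 genes was 103087 to 108670 on the hSRY-OFF arrays and 123789 to 128335 on the hSRY-ON arrays. Of 6 alveolar type I genes tested, none was called higher and Clic5 was called lower, and the sums were 44588 to 48432 and 46819 to 51058. Of 8 ciliated cell genes, 6 were called higher, with a median of 1.26 and sums of 10613 to 11154 and 13745 to 16384. Of 5 tested airway secretory genes, 4 were called higher, with a median of 1.18. The sums of this list were 52183 to 54232 and 63778 to 78528, and Bpifa1 was detected on no array. The uncalled gene was Scgb1a1, a marker of club cells, with a change of 0.006. Scgb3a2 was called on its dimmer probe, at 1.52, and not on its brighter probe, at 0.48. The summed intensity of each of the type II, ciliated and secretory lists was higher on every hSRY-ON array than on any hSRY-OFF array, and that of the type I list overlapped between the groups. Of 6 tested macrophage genes, 4 were called higher (Cd68, Marco, Cd14 and Mrc1), with sums of 3194 to 3477 and 6205 to 10986, and Itgax was detected on no array. Of 6 tested cardiac genes, Nppa was called higher and Myl4 lower, and of 4 tested skeletal muscle genes none was called. The part of any cell type in the changes of ENaC and pump genes was not tested.

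By likeness over the 6 arrays, the genes whose values followed Scnn1a most closely were Abca2, a lipid transporter (Pearson's r = 0.999), Ifi30, a thiol reductase of lysosomes (r = 0.999), and Osgin1, a gene of the oxidative stress response (r = 0.999). Their changes were 0.81, 0.90 and 1.99. The arrays fall into 2 groups for each of these genes, so the correlations mainly restate that all of them were higher in hSRY-ON, and they were picked as the highest of 13841 probes.

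**Figure D4:**
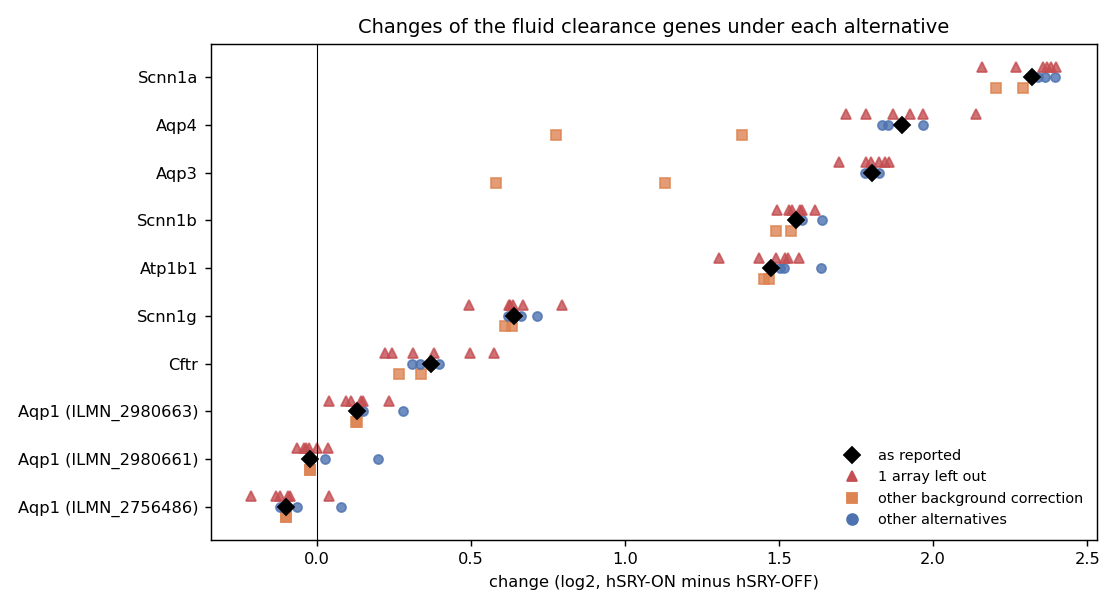
Change of each probe of the 8 genes (x axis, log2, hSRY-ON minus hSRY-OFF) as reported (diamonds), with 1 array left out (triangles), with another background correction (squares) and under the other alternatives (circles). Scnn1a stays between 2.16 and 2.40 and Scnn1b between 1.49 and 1.64, whereas Aqp3 and Aqp4 drop to 0.58 and 0.78 without background correction.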

How the data were processed

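Amplified, biotin-labelled RNA of 6 lung samples was run on Illumina MouseRef-8 arrays. The authors deposited, per probe and array, an intensity (mean bead signal), neither background-corrected nor normalized. Per the file headers each has a detection p-value, the share of negative control probes that were brighter. The bead summary software is not given in the sources used here. The study analysed its arrays with TCC, a count method, so limma 3.58.1 (R 4.3.3) was used for these intensities. The function neqc used the detection p-values for background correction and added an offset of 16, followed by quantile normalization and log2. Quantile normalization removes overall shifts, and the offset compresses changes of dim probes. Probes detected on at least 3 arrays were fitted with lmFit and eBayes, with no covariates. The fit was tested on simulated data. Median array intensities ranged from 177.1 to 204.0, and the number of arrays limits the precision. Per the study's methods the replicates are biological.

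The 8 genes, the pathway lists and the marker lists were chosen with earlier results of these data known. Named were all 8 genes, the called genes of each list, the gene of smallest p where a list had none, and the 3 genes most like the member of smallest p. Uncalled list genes and markers were named after their values were seen. Some called list genes enter the counts but are not reported here by name. Summed marker intensities add the normalized linear values of the brightest probe of each gene on the array, detected or not. Older array symbols (Gp38, Plunc, Tubb2c) were matched through RefSeq synonyms. Of 77 list genes, 73 were on the array. Of the 8 genes, 6 had a RefSeq promoter entry. Alternatives covered background correction, normalization, filter, variance model, array weights, replicate block, threshold and leaving out arrays.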

Additional observations from a re-analysis of the deposited data

How the results depend on the processing

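The number of called probes among the 8 genes was 6 and stayed between 4 and 6 under all 16 alternatives. It was 4 when detection on all arrays was required, since Aqp3 and Aqp4 were then not tested. Scnn1a, Scnn1b, Atp1b1, Aqp3 and Aqp4 were called wherever they were tested, and Cftr and Aqp1 nowhere. Scnn1g lost its call at an adjusted p under 0.01 (its own is 0.0309), and without single arrays as given above. Deviations of same-numbered arrays correlated at -0.107, 0.0958 and -0.0927, so no sign of pairing by replicate number was seen. With 3 arrays per group, such values cannot show that the arrays are unpaired. With the replicate block the Scnn1g adjusted p was 0.0619 (limma), and 2657 of all probes, 34 list probes and 5 of the probes of the 8 genes were called.

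Over all probes 3729 were called, 1326 at an adjusted p under 0.01, by construction fewer, and from 1675 to 4443 with 1 array left out. Leaving out hSRY-OFF replicate 1, 2 or 3 gave 1675, 1758 and 2239 calls, leaving out hSRY-ON replicate 2 gave 2464, and the most came when hSRY-ON replicate 1 was dropped. Calls among the pathway lists were 45, 17 at the stricter threshold, and from 20 to 49 with 1 array left out, at 20 and 24 when hSRY-OFF replicate 1 or 2 was dropped and at 29 when hSRY-ON replicate 2 was. For these differences between fits, the cause was not tested. The differences between ENaC subunits kept their sign in all 10 alternatives run for them.

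Uncalled Aqp1 changes turned sign. Probe ILMN_2756486 was at 0.0798 with median scaling and, with 1 array left out, between -0.213 and 0.0402, the latter without hSRY-ON replicate 3. Probe ILMN_2980661 was at 0.20 with median scaling, 0.0275 with cyclic loess and, with 1 array left out, between -0.0652 and 0.0356, being above 0 when hSRY-OFF replicate 1 or hSRY-ON replicate 3 was the one left out. Signal near background limits the sizes of Aqp3, Aqp4, Hsd11b2 and Wnk4.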
